A study of Mus musculus with 30 samples.

Results

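The genes described here are 7 that supply ubiquitin, activate it or return it to the free pool: Ubb, Rps27a, Uba1, Uba6, Usp5, Usp14 and Uchl3. They were taken by name from a list, not by their measured values, and are 7 of 57186 gene rows in the count table; all 7 passed the filter on low counts in both cell lines. RNA was sequenced from 2 mouse cell lines kept in cycloheximide, an inhibitor of translation elongation, at 0.1 µg/mL: NIH/3T3 fibroblasts, grown in DMEM with fetal bovine serum, and CGR8 embryonic stem cells, grown in N2B27 medium with 2i and LIF. Cells were taken after 0, 1, 2, 5 and 48 h, with 3 libraries (replicates A, B and C) per line and time, 30 libraries in 10 groups. The 0 h libraries are the untreated controls, although their label carries the same treatment text. Cells of both lines, controls included, carry a genotype labelled ROSA26 SLT knock-in, so no group without that allele was measured, and each line stands for its cell type alone. The labels do not say whether replicates came from separate cultures, so p-values measure only the spread between these libraries.

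Ubiquitin is a small protein that is attached to other proteins and marks many of them for the proteasome. It is never translated as a free protein: Ubb encodes a chain of ubiquitin units joined head to tail, while Rps27a encodes 1 unit fused to a ribosomal protein, and deubiquitinases cut the units free. An activating enzyme (E1), Uba1 or Uba6, charges each unit with ATP before it is conjugated. Deubiquitinases then recover it: Usp14 trims chains at the proteasome, Usp5 takes unanchored chains apart, and Uchl3 removes short extensions from the end of ubiquitin.

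The coding units of these precursors are shown because the same protein is written in different bases, which bears on how reads can be assigned to each gene. In the GENCODE M21 transcripts (GRCm38), Ubb held 4 units and Rps27a 1, followed by 80 codons of ribosomal protein. Each unit was 228 bases long, or 76 codons, and all of them encoded the same residues. Below, capitals mark bases that differ from the first unit of Ubb, which is given in lower case throughout.
Ubb unit 1: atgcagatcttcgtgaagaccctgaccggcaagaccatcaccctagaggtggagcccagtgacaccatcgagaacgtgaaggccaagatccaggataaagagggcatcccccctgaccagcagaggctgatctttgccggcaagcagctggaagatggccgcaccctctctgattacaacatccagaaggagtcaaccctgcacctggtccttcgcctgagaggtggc
Ubb unit 4: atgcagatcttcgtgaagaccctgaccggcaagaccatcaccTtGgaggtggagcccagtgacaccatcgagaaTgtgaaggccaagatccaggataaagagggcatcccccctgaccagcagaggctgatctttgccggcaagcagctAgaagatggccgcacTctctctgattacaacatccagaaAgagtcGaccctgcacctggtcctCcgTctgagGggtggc
Rps27a unit: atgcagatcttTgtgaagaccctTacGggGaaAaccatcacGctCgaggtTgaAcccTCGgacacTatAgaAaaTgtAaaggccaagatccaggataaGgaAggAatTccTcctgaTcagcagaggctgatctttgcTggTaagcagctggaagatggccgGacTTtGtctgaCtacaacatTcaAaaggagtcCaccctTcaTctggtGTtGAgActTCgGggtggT
Within Ubb, units 2, 3 and 4 were 97.8%, 99.1% and 95.6% identical to unit 1, with 10 differing bases in unit 4. The Rps27a unit was 80.7% identical to it, with 44 differing bases and none of them changing a residue. Copies elsewhere in the genome were searched for as well. Of the 50-base stretches of the Ubb transcript, 61.0% also occur in transcripts of other genes, chiefly the pseudogene Gm1821, listed at 0 counts in every library. For Rps27a the share was 72.0%, over 15 other genes of which 14 are pseudogenes; the most similar, Gm8430, lay between 2.13 and 11.7 CPM (the library-size-scaled count). Usp14 shared 45.3% with Thoc1, a gene on the opposite strand that overlaps its exons, and Uchl3 shared 27.4% with Uchl4, which lay between 0.167 and 1.55 CPM. Uba6 and Usp5 shared none and Uba1 0.77%. How the authors' counting treated reads with several matches is not given in the sources used here, so the levels of Ubb, Rps27a, Usp14 and Uchl3 are uncertain to that extent.

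Totals ran from 18.2 M to 30.5 M counts per library. Most markers separated the lines: all 6 stem cell markers were at 376 CPM or more in every CGR8 library and at most 0.383 CPM in NIH/3T3. Of 6 fibroblast markers, 5 separated the lines the other way. Col1a1, Col1a2, Col3a1 and Lox were at 217.8 CPM or more in every NIH/3T3 library, but Postn only at 0.357 to 1.01 CPM. Thy1 was reversed, at 1.47 to 4.34 CPM in CGR8 and at most 0.0932 CPM in NIH/3T3. A set of 3 libraries stood apart from both replicates of their group: NIH/3T3 1 h replicate C, NIH/3T3 2 h replicate A and CGR8 0 h replicate B. Their counts differed from either replicate with a chi-square per degree of freedom of 36.2 or more, against 7.24 or less for the other pair of the same group. In CGR8 at 2 h and 5 h every pair of replicates differed that much or nearly so (37.5 to 61.7 at 2 h and 31.7 to 73.7 at 5 h), so no single library could be named there. Libraries also differed in their balance of short and long transcripts. Length here, and in the length trend removed below, is that of all annotated exons of a gene merged. It can exceed the length of a single transcript: 1.97 kb against 791 bases for Rps27a, and 3.83 kb against 935 bases for Uchl3. Genes under 1 kb are called short transcripts below. At 5 h they lay above the line's 0 h mean by a median of 0.39 to 0.47 in NIH/3T3 and 0.48 to 0.89 in CGR8 (log2 scale). The median of genes over 5 kb lay below it in all 6 libraries. These values are given again beside some of the genes.

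A gene was called when the edgeR quasi-likelihood test, with Benjamini-Hochberg adjustment over all genes, gave an adjusted p under 0.05. In NIH/3T3 none of the 7 was called at 1 h (0.732% of all genes tested were called), 2 at 2 h (35.0% of all genes), 3 at 5 h (51.0%) and 3 at 48 h (52.3%). In CGR8 the number called was 0 after 1 h (0.270% of all genes), 1 after 2 h (19.9%), 3 after 5 h (52.1%) and 1 after 48 h (27.8%). Shares of this size among the 7 are near or below those of all genes, so the number of calls does not set them apart. At 1 h, 1 gene in NIH/3T3 (Uba6) and 0 in CGR8 had an unadjusted edgeR p under 0.05; DESeq2 called 0 in either line, and limma voom with sample weights called 3 in NIH/3T3 and 0 in CGR8. The response differed between the lines for 0 of the 7 at 1 h (0.160% of all genes called) and at 2 h (2.03%), with 0 at an unadjusted p under 0.05 and 0 by DESeq2 or limma voom, for 2 at 5 h (13.3%) and for 1 at 48 h (21.9%). Without the 3 libraries that stood apart, more genes passed in NIH/3T3: 1 at 1 h, 6 at 2 h, 5 at 5 h and all 7 at 48 h. The share of all genes called rose there too, to 14.7%, 54.0%, 64.2% and 66.8%. The NIH/3T3 libraries left out came from 1 h and 2 h, while the model estimates the spread over all times. At 5 h and 48 h, also for the single genes below, the libraries compared in NIH/3T3 were thus unchanged. The CGR8 counts were 0, 2, 3 and 1.

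**Figure D1:**
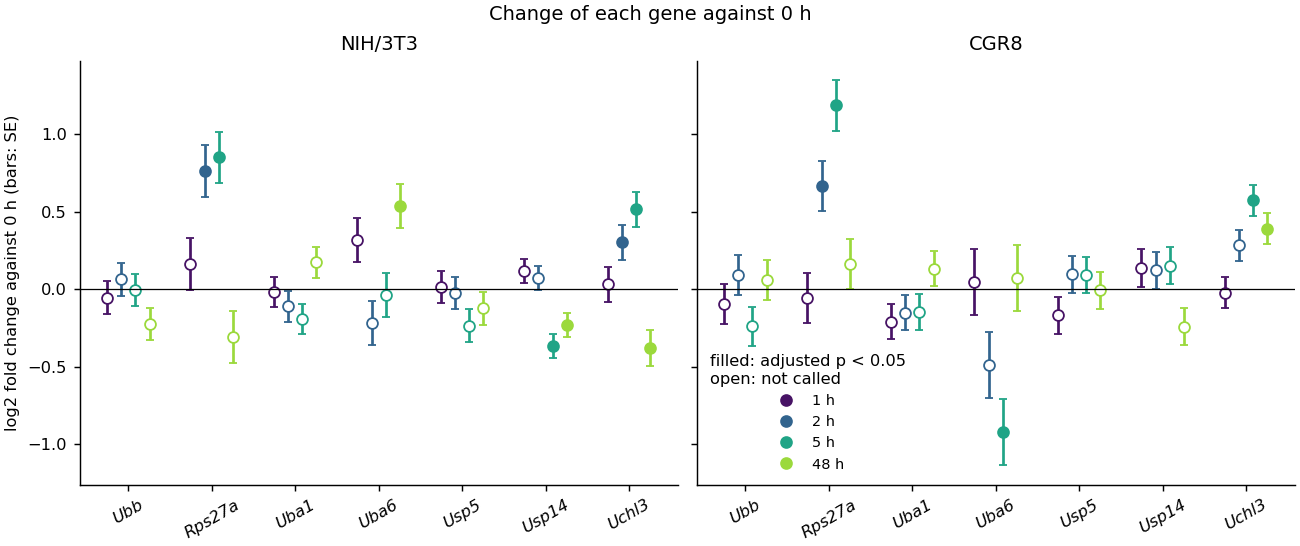
Log2 fold change against 0 h (vertical axis, bars are standard errors) of the 7 genes at 1, 2, 5 and 48 h in NIH/3T3 (left) and CGR8 (right). Filled points passed the edgeR test at an adjusted p under 0.05; Rps27a at 5 h is the highest point in both panels and Uba6 at 5 h in CGR8 the lowest.

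Rps27a, the fused precursor of ubiquitin and a small-subunit ribosomal protein, rose by 2 h and 5 h in both lines and had fallen again at 48 h. In NIH/3T3 its level was 1013, 1049 and 1154 CPM in replicates A, B and C at 0 h, then 1539, 1868 and 2055 at 2 h, 2071, 1866 and 1863 at 5 h and 854, 887 and 855 at 48 h. Every 2 h and 5 h library lay above every 0 h library, and every 48 h library lay below them. In CGR8 it was 1023, 1178 and 1036 CPM at 0 h, 1722, 1358 and 2050.5 at 2 h, 2904, 2553 and 1913 at 5 h and 1189, 1334 and 1105 at 48 h. Again no 2 h or 5 h library overlapped the controls, and at 5 h replicate A was the highest and replicate C the lowest. At 1 h, NIH/3T3 replicates A and B (1003 and 932 CPM) lay below all 3 controls while replicate C, one of the libraries that stood apart, was at 1667.

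The log2 change of Rps27a in NIH/3T3 was 0.76 ± 0.17 (SE, n = 3 per group) at 2 h (edgeR adjusted p = 0.00292) and 0.85 ± 0.17 at 5 h (adjusted p = 0.0005). In CGR8 it was 0.66 ± 0.16 at 2 h (edgeR adjusted p = 0.0109) and 1.19 ± 0.16 at 5 h (adjusted p = 2.7e-05), a 2.28-fold rise. The CGR8 call at 2 h was lost without CGR8 2 h replicate C (log2 change 0.51, adjusted p = 0.0777) and without CGR8 0 h replicate A (0.62, adjusted p = 0.0505). Between 5 h and 48 h it fell by 1.16 on the log2 scale in NIH/3T3 (edgeR adjusted p = 1.6e-05) and, in CGR8, by 1.02 (adjusted p = 6.7e-05). At 48 h the change from 0 h was -0.31 in NIH/3T3 (adjusted p = 0.13) and 0.16 in CGR8 (adjusted p = 0.484). The NIH/3T3 value was the same size without the libraries that stood apart and passed the test there (-0.31, adjusted p = 9.94e-05), and with the length trend removed it was -0.12 (adjusted p = 0.437). The lines did not differ detectably in the 5 h response (CGR8 minus NIH/3T3, 0.43 ± 0.25, edgeR adjusted p = 0.277).

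Rps27a was also set among the genes of the small ribosomal subunit, itself included. Of 33 such genes, 18 were called higher and 0 lower in NIH/3T3 at 5 h, and 28 higher and 0 lower in CGR8; at 48 h the counts were 0 higher and 14 lower in NIH/3T3 and 0 in either direction in CGR8. Over all genes the shares called were 24.0% higher and 27.1% lower in NIH/3T3 at 5 h, 24.9% and 27.2% in CGR8 at 5 h, 26.7% and 25.6% in NIH/3T3 at 48 h and 12.2% and 15.6% in CGR8 at 48 h; the counts of other gene lists at these times are to be set beside the same shares. The median log2 change of the list at 5 h was 0.40 in NIH/3T3 and 0.90 in CGR8, against -0.01 over all genes in either line. Rps27a ranked first of the 33 in NIH/3T3 at 5 h and second at 2 h; in CGR8 it had rank 1 at 2 h and rank 4 at 5 h, where Rps21, another small-subunit protein, rose most (log2 change 1.22). The summed level of these genes without Rps27a at 5 h was 34041 to 36040.4 CPM in NIH/3T3, against 25610.4 to 28381 at 0 h. In CGR8 it was 47124 to 72269.5 CPM, against 30480.0 to 41373.

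At 5 h the rise of Rps27a followed the shift towards short transcripts replicate by replicate in CGR8, but not in NIH/3T3. In CGR8 at 5 h, Rps27a in replicates A, B and C lay 1.43, 1.24 and 0.83 above the 0 h mean on the log2 scale. The median of genes with under 1 kb of merged exons lay 0.89, 0.68 and 0.48 above its 0 h mean in the same libraries. In NIH/3T3 at 5 h the values were 0.95, 0.80 and 0.80 for Rps27a and 0.41, 0.47 and 0.39 for short transcripts. Rps27a was above the short-transcript median in all 6 libraries. A trend on merged exon length, 1.97 kb for Rps27a, was also taken out of each library. With it removed, the 5 h change of Rps27a was 0.74 in NIH/3T3 (edgeR adjusted p = 0.00012) and 0.91 in CGR8 (adjusted p = 1.16e-05). The 2 h change was 0.60 and 0.50. The Rps27a transcript is 791 bases long, and a trend at that length was not tested.

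**Figure D2:**
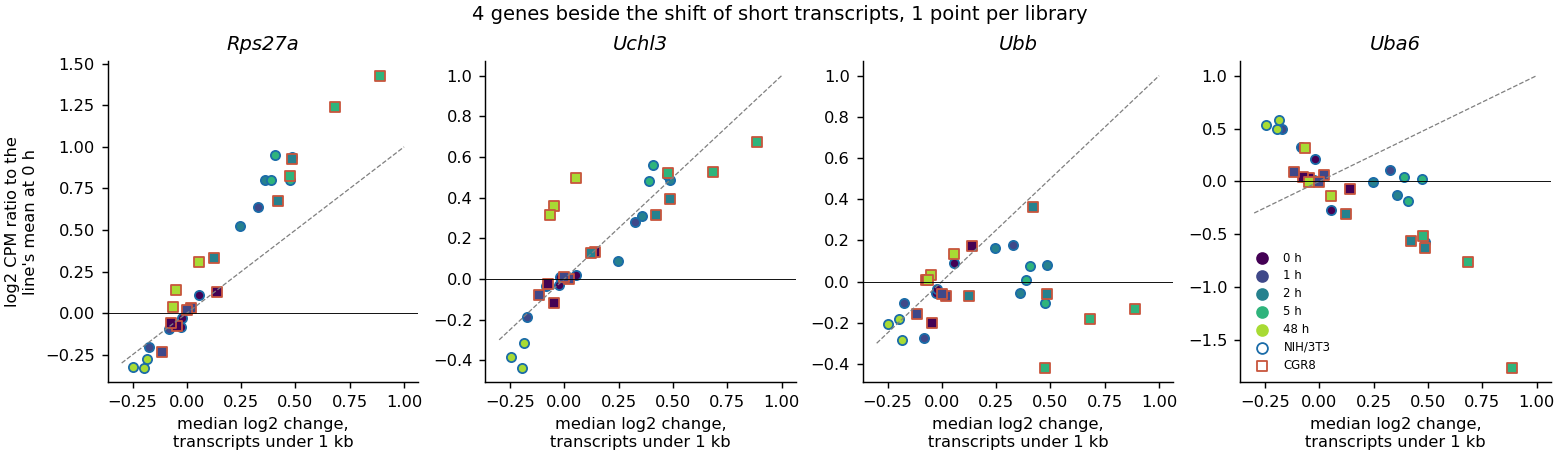
Log2 ratio of Rps27a, Uchl3, Ubb and Uba6 to the line's 0 h mean is on the vertical axis. The horizontal axis gives the median log2 change of genes with under 1 kb of merged exons in the same library. The picture labels these as transcripts under 1 kb. Each library is 1 point, coloured by time, with circles for NIH/3T3 and squares for CGR8. The dashed line marks equal values: Rps27a lies above it in all 5 h libraries, Uchl3 lies above it in CGR8 at 48 h and below it in NIH/3T3 at 48 h, Ubb does not follow it, and Uba6 is lowest where short transcripts are highest.

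Ubb, the chained precursor with 4 units, kept a level that the test did not separate from 0 h at any time in either line. In NIH/3T3 it was 631, 639.5 and 699.9 CPM at 0 h, 543, 611 and 743 at 1 h, 735, 631 and 693 at 2 h, 693, 611 and 661 at 5 h and 579, 539 and 569 at 48 h. The 3 libraries at 48 h were below all controls, but the log2 change of -0.22 ± 0.11 missed the threshold (edgeR adjusted p = 0.0844). Without the libraries that stood apart the same change passed (-0.23, adjusted p = 0.00276), and with the length trend removed it was -0.02. In CGR8 the level was 431, 559.9 and 498 CPM at 0 h, 445, 473 and 476 at 1 h, 637, 473 and 475 at 2 h, 452, 437 and 371 at 5 h and 507, 545 and 499 at 48 h. The 5 h libraries overlapped the controls, with a log2 change of -0.24 ± 0.13 (edgeR adjusted p = 0.128). There the call depended on the processing: with the length trend removed, Ubb was lower at 5 h by -0.58 (adjusted p = 5.48e-05), and with scaling on library size alone by -0.35 (adjusted p = 0.0107), a scaling that moved the median of all genes in this comparison from -0.01 to -0.12.

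The balance between both precursors shifted as Rps27a rose and Ubb did not. Per kilobase of transcript, the Rps27a level was 3.09 ± 0.04 times that of Ubb in untreated NIH/3T3 (SD, n = 3), 5.60 ± 0.23 times at 5 h and 2.92 ± 0.17 times at 48 h. In CGR8 the ratio was 4.14 ± 0.31 at 0 h, 11.0 ± 1.2 at 5 h and 4.43 ± 0.22 at 48 h. Counting 4 units for each Ubb transcript and 1 for each Rps27a transcript, Ubb carried 56.4 ± 0.3% of the ubiquitin units encoded by the pair in untreated NIH/3T3, 41.7 ± 1.0% at 5 h and 57.8 ± 1.4% at 48 h. In CGR8 the share went from 49.2 ± 1.8% to 26.8 ± 2.2% and back to 47.5 ± 1.2%. The 5 h libraries of each line overlapped neither the 0 h nor the 48 h libraries in this share; no test was made of it, and it describes mRNA, not protein.

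**Figure D3:**
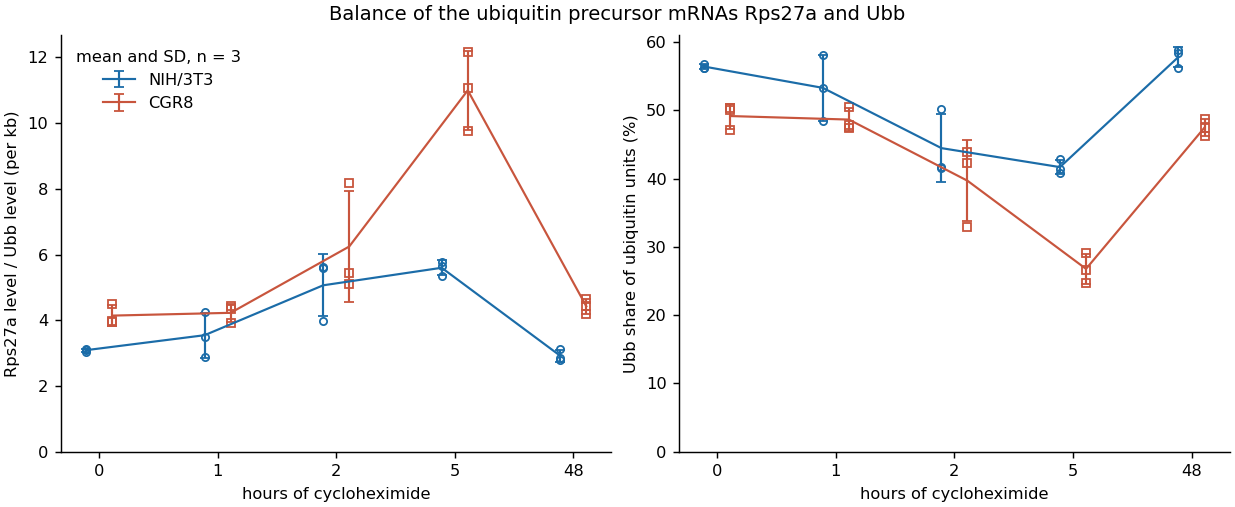
Ratio of the Rps27a level to the Ubb level per kilobase (left) and Ubb share of the ubiquitin units encoded by both mRNAs (right) by hours of cycloheximide, with open symbols for libraries and lines for the mean and SD of 3. The share falls from 49.2% to 26.8% in CGR8 and from 56.4% to 41.7% in NIH/3T3 at 5 h, and returns at 48 h.

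**Figure D4:**
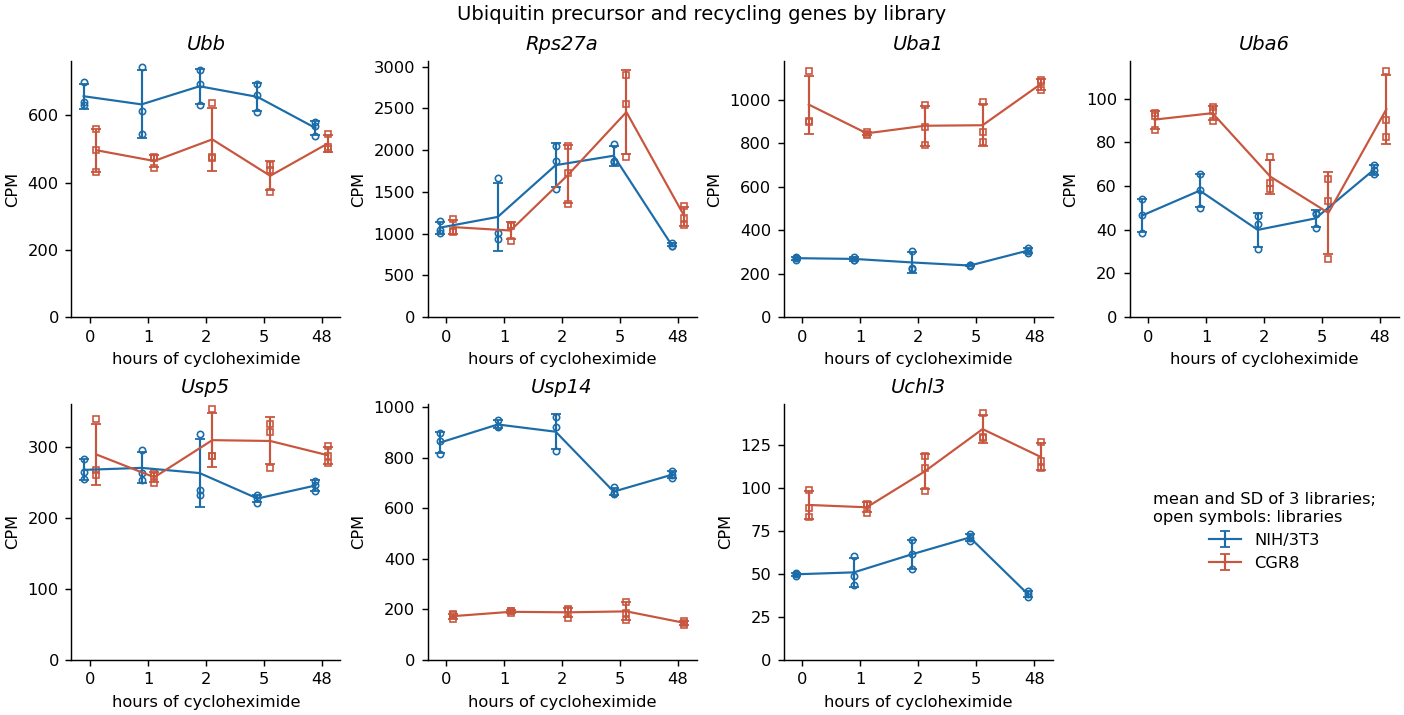
Level of each of the 7 genes in CPM (vertical axes from 0) by hours of cycloheximide, with 1 open symbol per library and lines through the mean with its SD (n = 3), circles for NIH/3T3 and squares for CGR8. Rps27a peaks at 5 h in both lines, and Uba6 is lowest at 5 h in CGR8. The libraries of the lines do not overlap at any time for Uba1, Usp14 and Uchl3.

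Of the activating enzymes, Uba6 fell in CGR8 at 5 h and rose in NIH/3T3 at 48 h. It charges both ubiquitin and the modifier FAT10. In CGR8 it was 92.3, 85.7 and 93.3 CPM at 0 h, 96.3, 94.2 and 89.8 at 1 h, 61.2, 73.1 and 58.5 at 2 h, 26.6, 53.4 and 63.2 at 5 h and 90.3, 82.3 and 112.9 at 48 h. All 2 h and 5 h libraries were below all controls, but the 2 h change of -0.49 ± 0.21 was not called (edgeR adjusted p = 0.112). Replicate A was the lowest at 5 h and also had the strongest shift against long transcripts (median of genes over 5 kb, -0.51 on the log2 scale, against -0.34 and -0.20 in replicates B and C). The log2 change at 5 h was -0.92 ± 0.22 (edgeR adjusted p = 0.00212), and the level fell by 47.2%; with the length trend removed it was -0.59 (adjusted p = 0.00646). Uba6 then rose between 5 h and 48 h by 1.00 ± 0.22 (adjusted p = 0.00099). Over 16 alternatives this rise ran from 0.60 to 1.25 and kept its call.

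In NIH/3T3, Uba6 was 46.9, 53.9 and 38.5 CPM at 0 h, 58.3, 65.4 and 50.2 at 1 h, 46.2, 42.5 and 31.2 at 2 h, 40.8, 47.1 and 47.9 at 5 h and 65.4, 69.6 and 67.2 at 48 h. The 48 h libraries were above all controls, with a log2 change of 0.54 ± 0.14 (edgeR adjusted p = 0.00466), while at 5 h it was -0.04 (adjusted p = 0.845). Over 16 alternatives the 48 h change ran from 0.39 to 0.65 and kept its call. Uba6 has 8.16 kb of merged exons, and in the 48 h libraries the median of genes over 5 kb lay 0.15 to 0.16 above its 0 h mean. The 5 h response differed between the lines by -0.80 ± 0.27 (CGR8 minus NIH/3T3, edgeR adjusted p = 0.0443), among 13.3% of all genes called in that comparison. This difference was lost when any of 7 single libraries was left out, with the highest adjusted p, 0.141, without NIH/3T3 0 h replicate C (-0.68). Those libraries were NIH/3T3 0 h replicates A and C, all 3 NIH/3T3 5 h libraries and CGR8 0 h replicates A and C. A fit of only the groups compared also lost it (adjusted p = 0.1).

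Uba1, the main E1 for ubiquitin, showed smaller movements. Its NIH/3T3 level was 274, 264 and 277 CPM at 0 h, 235, 238 and 240.1 at 5 h and 316, 307 and 296 at 48 h. All 5 h libraries were below and all 48 h libraries above the controls. The 5 h change of -0.19 did not pass the test (edgeR adjusted p = 0.118), and passed without the libraries that stood apart (-0.18, adjusted p = 0.000896); with the length trend removed it was -0.086 (adjusted p = 0.434). From 5 h to 48 h it rose by 0.37 ± 0.10 (edgeR adjusted p = 0.00404). In CGR8 the level was 898, 1133 and 905 CPM at 0 h, 850.3, 992 and 809 at 5 h and 1044, 1092 and 1082 at 48 h. The 5 h to 48 h rise of 0.28 ± 0.11 passed the threshold (adjusted p = 0.0461) and was lost with the length trend removed (0.16, adjusted p = 0.202). It was also lost without CGR8 5 h replicate A or C (0.24 and 0.22, adjusted p = 0.136 and 0.143) and without any one of CGR8 48 h replicates A, B and C (adjusted p = 0.0674, 0.1 and 0.0955). It was also lost with RLE size factors, DESeq2, limma voom, a filter at a mean of 5 CPM and a fit of only the groups compared (adjusted p = 0.0654, 0.0511, 0.0545, 0.0559 and 0.0878). In all, 11 of 16 alternatives did not call it.

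In the comparison of 48 h with 5 h, 4 of the 7 genes were called in NIH/3T3 (65.6% of all genes called) and 4 in CGR8 (57.5%). Uba6 was higher and Rps27a lower at 48 h in each line, and Uba1 was higher in NIH/3T3; the CGR8 call of Uba1 is the one that most alternatives lost. The remaining genes were Uchl3, lower in NIH/3T3 by 0.90 (adjusted p = 3.8e-06), and Usp14, lower in CGR8 by 0.39 (adjusted p = 0.011, edgeR); the Usp14 call was lost without CGR8 5 h replicate C (-0.24, adjusted p = 0.0779) and with scaling on library size alone (-0.32, adjusted p = 0.0668), and was -0.82 with the length trend removed.

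Among the recycling enzymes, Uchl3 rose in both lines at 5 h and parted at 48 h. In NIH/3T3 it was 48.7, 49.9 and 50.4 CPM at 0 h, 52.8, 61.4 and 69.6 at 2 h, 73.2, 70.6 and 69.3 at 5 h and 36.7, 39.8 and 38.0 at 48 h. The controls lay close together, with the 5 h libraries all above and the 48 h libraries all below them. In CGR8 it was 82.9, 98.6 and 88.2 CPM at 0 h, 112, 98.2 and 118 at 2 h, 143, 129.6 and 129.0 at 5 h and 115, 127 and 112 at 48 h, where all 5 h and 48 h libraries exceeded the controls. The 5 h change was 0.52 ± 0.11 in NIH/3T3 (edgeR adjusted p = 0.00114) and 0.58 ± 0.10 in CGR8 (adjusted p = 0.0002).

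At 48 h Uchl3 was lower than at 0 h in NIH/3T3 (-0.38 ± 0.11, edgeR adjusted p = 0.0101) and higher in CGR8 (0.39 ± 0.10, adjusted p = 0.00792). The difference between the lines, 0.75 ± 0.15, passed the test of the interaction (edgeR adjusted p = 0.00066), where 21.9% of all genes were called. It was 0.75 with the length trend removed and 0.84 without the libraries that stood apart. The trend removed was on merged exon length, 3.83 kb for Uchl3. A trend at the transcript length of 935 bases was not tested. At 5 h, Uchl3 in CGR8 replicates A, B and C lay 0.67, 0.53 and 0.52 above the 0 h mean on the log2 scale, beside a short-transcript median of 0.89, 0.68 and 0.48. At 48 h it lay 0.36, 0.50 and 0.31 above that mean, beside a short-transcript median of -0.05, 0.06 and -0.07. In NIH/3T3 replicates A, B and C, Uchl3 at 5 h lay at 0.56, 0.51 and 0.48, beside 0.41, 0.47 and 0.39. There the 48 h values were -0.44, -0.32 and -0.39, beside -0.20, -0.18 and -0.25. The part of the shift of short transcripts in these changes was not tested. The 2 h call in NIH/3T3 (0.30, edgeR adjusted p = 0.0452) was lost without any one of NIH/3T3 0 h replicates A, B and C or NIH/3T3 2 h replicates B and C, the last giving 0.22 (adjusted p = 0.199). It was also lost with scaling on library size alone, with no filter and with only the groups compared (adjusted p = 0.078, 0.0634 and 0.0566), and was 0.42 (adjusted p = 2.47e-05) without the libraries that stood apart. In CGR8 at 2 h the change of 0.28 missed the threshold (adjusted p = 0.0556).

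Usp14, the deubiquitinase bound to the proteasome, fell in NIH/3T3 at 5 h and 48 h and was not called against 0 h in CGR8. Its NIH/3T3 level was 865, 897 and 816 CPM at 0 h, 949.7, 924 and 921 at 1 h, 827, 962 and 919.7 at 2 h, 657, 682 and 658 at 5 h and 730.2, 747 and 719.8 at 48 h. No 5 h or 48 h library reached the lowest control. The log2 change was -0.37 ± 0.08 at 5 h (edgeR adjusted p = 0.00092) and -0.23 ± 0.08 at 48 h (adjusted p = 0.0199). The 48 h call was lost with scaling on library size alone (-0.16, adjusted p = 0.117), with no filter (adjusted p = 0.109) and without NIH/3T3 0 h replicate A or B or NIH/3T3 48 h replicate A or C (adjusted p = 0.0517, 0.0695, 0.0572 and 0.0682). With the length trend removed the 5 h change was -0.22 (adjusted p = 0.0328) and the 48 h change -0.39 (adjusted p = 0.000751).

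In CGR8, Usp14 was 179, 161 and 177 CPM at 0 h, 159, 186 and 229.7 at 5 h and 147, 137 and 154 at 48 h. The 5 h libraries spread on both sides of the controls (log2 change 0.15, edgeR adjusted p = 0.307); with the length trend removed the change was 0.51 (adjusted p = 8.36e-05). The lines differed in the 5 h response by 0.61 ± 0.14 (CGR8 minus NIH/3T3, edgeR adjusted p = 0.00342), which was lost without CGR8 5 h replicate B (0.46, adjusted p = 0.0534) and with scaling on library size alone (0.42, adjusted p = 0.101). That scaling moved the median difference over all genes from 0.13 to -0.06, and the split of all genes called in this comparison from 1435 higher and 894 lower to 661 and 1439; size factors by the RLE method gave 944 and 1111. Thoc1, whose exons overlap those of Usp14 on the other strand, rose in NIH/3T3 from 39.7 ± 2.7 to 102.6 ± 7.1 CPM at 5 h (SD, n = 3), against a fall of Usp14 from 859.5 ± 40.8 to 666 ± 14 CPM.

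Usp5, which disassembles unanchored ubiquitin chains, was not called against 0 h in either line. In NIH/3T3 it was 254, 265 and 284 CPM at 0 h and 232, 221 and 229 at 5 h, all below the controls, with a log2 change of -0.24 ± 0.11 (edgeR adjusted p = 0.0741). Without the libraries that stood apart, none of them from these groups, the same change passed (-0.23, adjusted p = 0.000351). With the length trend removed it was -0.14 (adjusted p = 0.239). In CGR8 it was 268, 339 and 261 CPM at 0 h, the highest value being in the library that stood apart, and 322, 333 and 271 at 5 h.

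Untreated, the lines differed in 5 of the 7 genes, among 79.1% of all genes called in that comparison. CPM scaled over all 30 libraries are used for these levels. Usp14 was 872 ± 33 CPM in NIH/3T3 and 169 ± 9 in CGR8, 5.14-fold lower (log2 difference -2.36 ± 0.10 SE, edgeR adjusted p = 2.5e-18). Uba1 was 275 ± 9 and 963 ± 137 CPM, 3.49-fold higher in CGR8 (adjusted p = 7.6e-15). Uba6 (log2 difference 0.92) and Uchl3 (0.81) were also higher in CGR8 and Ubb lower (-0.45; edgeR adjusted p = 7.1e-05, 1.3e-07 and 0.00122). Rps27a, at 1087 ± 83 and 1061 ± 91 CPM, and Usp5, at 272 ± 17 and 285 ± 44, were not separated (adjusted p = 0.858 and 0.595). All 5 calls held under every alternative run for this comparison.

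Per kilobase, the order in untreated NIH/3T3 was Rps27a (1375 ± 104 CPM per kb), Ubb (445 ± 29), Usp14 (184 ± 7), Usp5 (84.5 ± 5.3), Uba1 (67.7 ± 2.3), Uchl3 (53.8 ± 1.2) and Uba6 (7.14 ± 1.11), each step being larger than the SDs of its neighbours. In CGR8 it was Rps27a (1341 ± 115), Ubb (326 ± 44), Uba1 (236 ± 34), Uchl3 (94.6 ± 8.9), Usp5 (88.6 ± 13.8), Usp14 (35.9 ± 2.0) and Uba6 (13.5 ± 0.5). There Uchl3 and Usp5 did not differ beyond their spread. Usp14 thus stood above Usp5 and Uba1 in the fibroblasts and below both in the stem cells.

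Other genes of the ubiquitin system were read from lists of names. Of 12 ubiquitin-like modifiers, proteins conjugated in the manner of ubiquitin, 7 were called higher and 0 lower in NIH/3T3 at 5 h, and of 11 tested in CGR8, 9 were higher and 0 lower. The list's median log2 change was 0.49 and 0.64, against -0.01 over all genes in either line. The part of the shift towards short transcripts in this count was not tested. Atg12, a modifier of autophagy, rose most in NIH/3T3 (39.2 ± 1.4 to 79.9 ± 2.1 CPM, SD, n = 3; log2 change 1.03, edgeR adjusted p = 4.8e-07). Urm1, a modifier that also acts as a sulfur carrier for tRNA, rose most in CGR8 (87.8 ± 3.1 to 205 ± 42 CPM; 1.22, adjusted p = 9.6e-06) and fell most in NIH/3T3 at 48 h (-0.75, adjusted p = 8.7e-05).

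Of 9 E1 enzymes tested for ubiquitin and its relatives, 3 were higher and 1 lower in NIH/3T3 at 5 h and 4 higher and 1 lower in CGR8, the lower one in CGR8 being Uba6. Uba3, the catalytic subunit of the NEDD8 E1, rose most in NIH/3T3 (log2 change 0.77, edgeR adjusted p = 0.00016) and Mocs3, which activates Urm1, in CGR8 (0.64, adjusted p = 0.0013). At 48 h Uba6 had the largest rise of this list in NIH/3T3. Among 32 conjugating enzymes, 12 were higher and 8 lower in NIH/3T3 at 5 h and 9 higher and 7 lower in CGR8. Ube2v2, a partner of Ube2n in making K63-linked chains, led the rises in both lines, from 29.4 ± 3.6 to 65.0 ± 2.2 CPM in NIH/3T3 and from 20.1 ± 1.5 to 45.4 ± 8.3 in CGR8 (log2 changes 1.15 and 1.17, edgeR adjusted p = 1e-05 and 2.7e-05). At 48 h, 16 of 32 were lower and 4 higher in NIH/3T3, with Cdc34, an E2 of cullin ligases, falling most (-1.04, adjusted p = 2.6e-05), and 4 lower and 2 higher in CGR8.

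Deubiquitinases, the class that holds Usp5, Usp14 and Uchl3, were called in both directions. In NIH/3T3 at 5 h, 17 of 67 were higher and 14 lower; in CGR8, 11 of 73 were higher and 29 lower. Usp21 fell most in both lines, from 21.5 ± 2.7 to 7.57 ± 0.42 CPM in NIH/3T3 and from 50.7 ± 0.8 to 19.3 ± 1.1 in CGR8 (log2 changes -1.51 and -1.39, edgeR adjusted p = 8.1e-08 and 1.2e-07). Uchl3 was thus among the smaller group called higher in CGR8. Between 5 h and 48 h in CGR8, 42 of 73 were higher and 11 lower, Usp14 among the latter, against 28.9% and 28.6% of all genes.

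Receptors and shuttles, which carry ubiquitinated proteins to the proteasome or the autophagosome, were called lower more often than higher at 5 h: 10 of 18 lower and 2 higher in NIH/3T3, 7 of 18 lower and 2 higher in CGR8. Ubqln2, a proteasome shuttle, fell most in both lines, by 1.00 in NIH/3T3 and 0.87 in CGR8 on the log2 scale (edgeR adjusted p = 1.9e-06 and 0.00028). Heat-shock factors and chaperones were listed because Ubb is known as a stress-induced gene. Of 12 tested in NIH/3T3, 10 were lower and 1 higher at 5 h, and of 13 in CGR8, 8 were lower and 1 higher; Hspe1, a mitochondrial chaperonin, was the higher one in both. Hspa8, the constitutive cytosolic Hsp70, fell from 2371 ± 51 to 421 ± 3 CPM in NIH/3T3 (log2 change -2.49, edgeR adjusted p = 4.7e-08). Ubb was not called in the same comparison.

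The genes whose pattern over the 10 group means, centred within each line, was most like that of each member were found among 7027 genes; these r values describe 10 shared group means and carry no test. Rps27a was closest to Ndufs4 (Pearson r = 0.994), a complex I subunit, and Rpl10a (0.993), a ribosomal protein. Uchl3 was closest to Acot9 (0.995) and Gpn3 (0.990), Uba6 to Ascc3 (0.990) and Smad5 (0.981), and Uba1 to Rpn2 (0.960). Usp14 was closest to Cep78 (0.949) and Rad54l (0.931), Usp5 to Dmap1 (0.920) and Fkbp4 (0.909), and Ubb to Ndrg1 (0.873) and Fbxl12 (0.849). Among the members themselves, Rps27a and Uchl3 ran together (0.901) and Rps27a and Uba6 ran opposite (-0.900). The part of the shift between short and long transcripts in these likenesses was not tested.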

How the data were processed

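RNA was measured in 30 mouse libraries (2 lines, 5 times, 3 replicates) prepared with column-purified RNA and a stranded mRNA ligation kit, per the labels' protocols. The deposited table holds raw counts per gene for 57186 gene IDs. The submitters' processing notes name STAR, DESeq2 and GRCm39; the counting program, its strand setting and the annotation are not given in the sources used here. Symbols, merged exon lengths, transcript lengths and transcript sequences came from GENCODE M21 (GRCm38), which matched 90.7% of the IDs, so no gene coordinates are printed.

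Genes with low counts were removed with filterByExpr (minimum count 10, minimum total 15), libraries were scaled by TMM, and times were set against 0 h with edgeR 4.0.16 (quasi-likelihood test) in R 4.3.3, with 1 model per line over its 15 libraries. Line differences in response and the untreated comparison used 1 model of all 30. P-values were adjusted by Benjamini-Hochberg over all genes tested. The scripts were tested on simulated data. Alternatives used DESeq2 1.42.0, limma 3.58.1 (voom with sample quality weights), other scalings and filters, only the groups compared, a replicate block, and leaving out single libraries. A further pair was added after seeing the data: leaving out 3 libraries that stood apart, and removing from each library a trend on merged exon length.

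Depth was 18.2 M to 30.5 M counts per library; the 7 genes had 600 counts or more in each. Replicate letters did not pair the libraries. Besides the 7 genes, genes are named as the largest called rise and fall in each list at 5 h and 48 h (from genes of 10 CPM or more where higher), together with the 2 genes most like each member. Thoc1, Gm1821, Gm8430 and Uchl4 were named after their overlap in sequence was seen. The members and lists were chosen with earlier results of these data known. Some genes that this rule names are not reported here. Levels per kilobase divide CPM by the length of 1 transcript per gene.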

Additional observations from a re-analysis of the deposited data

Results flagged for a closer look

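Of the 7 genes, 3 responded differently in the lines by the test of the difference itself (edgeR quasi-likelihood interaction, CGR8 minus NIH/3T3, n = 3 libraries per group), which called 13.3% of all genes at 5 h and 21.9% at 48 h. Usp14 differed by 0.61 at 5 h on the log2 scale (adjusted p = 0.00342), being lower than 0 h in 3 of 3 NIH/3T3 libraries. Uba6 differed by -0.80 at 5 h (adjusted p = 0.0443), being lower than 0 h in 3 of 3 CGR8 libraries. Uchl3 differed by 0.75 at 48 h (adjusted p = 0.00066), with 3 of 3 CGR8 libraries above and 3 of 3 NIH/3T3 libraries below their controls. Of 22 alternatives, 8 lost the Uba6 call, 2 lost the Usp14 call and 0 lost the Uchl3 call.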

How the results depend on the processing

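Of 29 changes of the 7 genes that were called, 22 passed the threshold in the same direction under every alternative run, 0 changed sign, and 7 missed it under at least 1, as given beside each. Of 76 changes that were not called, 38 had the other sign under at least 1 alternative, 0 of them past the threshold, and 34 passed it with the same sign under at least 1. Of the values printed that were not called, Uba6 in NIH/3T3 at 5 h was 0.11 with the length trend removed and from -0.14 to 0.082 without 1 library, and Usp14 in CGR8 at 5 h ran from -0.0041 (without CGR8 5 h replicate C) to 0.28; the cause was not tested. Counts of the 7 genes moved by over 1.5 times as follows. In NIH/3T3, limma voom called 3 at 1 h, 4 at 2 h, 5 at 5 h, 6 at 48 h and 7 from 5 h to 48 h, where it called 20.6%, 56.1%, 67.5%, 69.9% and 79.1% of all genes; without the 3 libraries that stood apart the first 4 counts were 1, 6, 5 and 7, beside 14.7%, 54.0%, 64.2% and 66.8% of all genes; with only the groups compared they were 1 at 2 h, 5 at 5 h and 7 at 48 h; library size alone and no filter gave 1 at 2 h. In CGR8 at 2 h, library size alone, DESeq2, no filter, a mean of at least 5 CPM and leaving out the libraries that stood apart gave 2, and limma voom and the length trend removed gave 3. At 5 h, library size alone and the length trend removed gave 5, and at 48 h limma voom gave 3 and the length trend removed 2. For the line difference, library size alone and only the groups compared gave 1 and limma voom 5 at 5 h; at 48 h limma voom gave 4, only the groups compared 3, and no filter and leaving out the libraries that stood apart 2. Leaving out 1 library gave 1 to 3 calls in NIH/3T3 at 2 h, 0 to 2 in CGR8 at 2 h, 2 to 4 in CGR8 from 5 h to 48 h and 1 to 3 for the line difference at 5 h. A fit with the replicate block gave the same counts as the fit without it in every comparison (3 at 5 h in each line); letters did not pair libraries, since deviations of same-lettered libraries correlated by over 0.1 for all 3 letters in 1 of 10 pairs of groups in NIH/3T3 and 0 of 10 in CGR8. The 7 genes had 600 counts or more in every library.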
